A study of Mus musculus with 9 samples.

Results

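The kappa variable segments are the rows of the deposited count table whose names begin with Igkv, and 158 of the 46958 rows carried such a name. The table came from RNA sequencing of plasma cells taken from the spleens of non-immunized 3-month-old mice with magnetic beads that bind CD138 (syndecan-1) on the surface of plasma cells. 9 libraries were made, 1 per mouse, for 3 genotypes with 3 mice each. The genotypes were WT, DH-LMP2A and kFRA, the last also labelled LCDD for light chain deposition disease, in which fragments of a monoclonal light chain build up in tissues. All mice shared a mixed C57/BL6x129/SVxBALB/c background, so a locus could carry alleles other than those of the C57BL/6 reference genome. The labels describe the alleles no further. As background from outside the labels, LMP2A is a membrane protein of Epstein-Barr virus that mimics a receptor signal, and in DH-LMP2A mice it is expressed from the heavy-chain locus in place of a heavy chain, so that B cells form without a complete antibody. kFRA mice carry a human kappa variable region from a patient with LCDD, placed at the joining segments of the mouse kappa locus. Whether the kFRA mice sampled here also carried the DH-LMP2A allele is not given in the labels. Ighm, the constant region of the IgM heavy chain, was at 169075 ± 15047 CPM in WT (counts scaled to a common library total; SD, n = 3), against 9750 ± 344 CPM in DH-LMP2A and 8819 ± 1752 CPM in kFRA.

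A kappa light chain is built in the developing B cell by joining 1 variable (V) segment to 1 joining (J) segment, which is then spliced to the constant region Igkc. The V segment codes for most of the antigen-binding domain, including part of the third hypervariable loop, CDR3. Each B cell usually expresses 1 rearranged kappa allele, so the mix of V segments in plasma cell RNA reflects both how many cells use each segment and how much RNA each of these cells makes. In bulk RNA these quantities cannot be told apart.

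The segments lay on chromosome 6 at chr6:67555497-70704177 of build GRCm38, over 3149 kb, on the side of Igkj1 away from Igkc. In the GENCODE M21 annotation 98 were V genes and 58 were pseudogenes, and 2 rows had no match there. The name gives the family, which is a group of similar sequences, and there were 20 families. 76 segments had the same orientation as Igkc and 82 the opposite one. 111 segments had enough counts to be tested, which were all 98 V genes, 12 pseudogenes and 1 row without a match. The other 47 rows reached at most 16 counts in any library, and 21 of them had no count in all 9. Rows of the tested segments were 298 to 752 bases long with a median of 362. 4 tested rows (Igkv4-73, Igkv12-47, Igkv4-56 and Igkv19-93) join exons at 2 distant places, and the annotation gives the second place to another segment (Igkv4-51, Igkv13-85, Igkv4-83 and Igkv11-106, in that order). Which place their reads came from was not tested. Together these rows held 0.872% to 2.03% of the Igkv counts of a WT or DH-LMP2A library.

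The last bases (at most 300) of the V exons of the 7 segments that led a WT library or were among the 4 highest of DH-LMP2A by mean share are shown first, because most of the results below turn on them. They are the reference sequences of GENCODE M21 transcripts on GRCm38, written 5′ to 3′ on the coding strand. Capitals mark the germline part of CDR3, from the base after the last in-frame cysteine codon to the end of the exon. Igkv3-4, Igkv4-55 and Igkv5-39 each led 1 WT library. The stretches shown lie at chr6:70672078-70672377 on the plus strand, chr6:69607275-69607574 on the minus strand and chr6:69900424-69900721 on the minus strand.
Igkv3-4: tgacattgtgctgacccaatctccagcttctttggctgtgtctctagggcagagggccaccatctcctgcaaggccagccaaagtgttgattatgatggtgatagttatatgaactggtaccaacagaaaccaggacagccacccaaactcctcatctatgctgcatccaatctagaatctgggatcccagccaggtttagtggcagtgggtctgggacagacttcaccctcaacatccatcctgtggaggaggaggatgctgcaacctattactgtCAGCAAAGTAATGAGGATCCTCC
Igkv4-55: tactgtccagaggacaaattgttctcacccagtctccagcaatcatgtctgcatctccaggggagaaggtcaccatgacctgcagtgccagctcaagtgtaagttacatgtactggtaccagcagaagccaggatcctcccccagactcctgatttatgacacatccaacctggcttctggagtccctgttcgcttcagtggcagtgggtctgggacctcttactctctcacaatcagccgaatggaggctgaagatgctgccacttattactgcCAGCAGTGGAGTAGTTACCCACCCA
Igkv5-39: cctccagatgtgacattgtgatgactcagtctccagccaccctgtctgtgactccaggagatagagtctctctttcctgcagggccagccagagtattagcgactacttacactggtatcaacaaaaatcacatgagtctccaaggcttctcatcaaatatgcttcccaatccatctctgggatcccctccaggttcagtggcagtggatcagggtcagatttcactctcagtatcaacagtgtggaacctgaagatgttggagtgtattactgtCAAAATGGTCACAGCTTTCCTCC

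Igkv14-111, Igkv12-44, Igkv4-57 and Igkv5-43 were the 4 highest segments of DH-LMP2A. The stretches shown lie at chr6:68256572-68256869 on the plus strand, chr6:69814631-69814928 on the minus strand, chr6:69575975-69576274 on the minus strand and chr6:69823355-69823652 on the minus strand.
Igkv14-111: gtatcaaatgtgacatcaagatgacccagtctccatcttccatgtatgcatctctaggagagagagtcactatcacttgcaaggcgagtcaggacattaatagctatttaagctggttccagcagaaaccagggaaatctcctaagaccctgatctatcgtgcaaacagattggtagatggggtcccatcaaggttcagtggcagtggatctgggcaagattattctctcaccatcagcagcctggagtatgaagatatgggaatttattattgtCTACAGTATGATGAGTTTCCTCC
Igkv12-44: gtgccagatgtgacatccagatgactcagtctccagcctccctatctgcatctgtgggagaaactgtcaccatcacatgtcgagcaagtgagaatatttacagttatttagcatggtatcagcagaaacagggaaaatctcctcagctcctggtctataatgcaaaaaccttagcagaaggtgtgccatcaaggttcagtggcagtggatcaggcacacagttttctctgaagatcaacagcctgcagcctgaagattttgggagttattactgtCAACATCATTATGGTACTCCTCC
Igkv4-57: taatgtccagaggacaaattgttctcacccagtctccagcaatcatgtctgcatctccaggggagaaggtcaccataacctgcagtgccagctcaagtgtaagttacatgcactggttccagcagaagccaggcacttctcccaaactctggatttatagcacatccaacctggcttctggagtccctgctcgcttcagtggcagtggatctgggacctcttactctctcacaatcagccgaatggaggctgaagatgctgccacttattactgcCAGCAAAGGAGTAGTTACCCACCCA
Igkv5-43: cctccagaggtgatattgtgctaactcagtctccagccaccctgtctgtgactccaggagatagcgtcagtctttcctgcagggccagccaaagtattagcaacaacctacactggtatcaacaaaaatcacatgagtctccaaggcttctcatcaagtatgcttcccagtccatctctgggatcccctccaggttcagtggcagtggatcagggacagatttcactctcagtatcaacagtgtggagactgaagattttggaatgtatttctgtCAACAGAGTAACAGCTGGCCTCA
The list holds 2 pairs of relatives whose members moved in opposite directions in the comparison below. Igkv4-55 and Igkv4-57 were 94.4% identical over the V exon, with 2 differing bases in the CDR3 part, and Igkv5-39 and Igkv5-43 were 91.3% identical, with 7 differing bases in that part.

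Igkv transcripts were abundant in WT and DH-LMP2A and almost absent in kFRA. They took 6.26%, 7.12% and 8.36% of all counts in WT replicates 1 to 3, and 8.33%, 8.19% and 10.2% in DH-LMP2A. In kFRA they took 0.00194%, 0.00521% and 0.00199%. The WT and DH-LMP2A ranges overlapped (means 7.25% ± 1.05 and 8.90% ± 1.12, SD, n = 3; exact permutation test, 2-sided, p = 0.3). No kFRA library came near either range, and p = 0.1 in both of these comparisons is the smallest value that the exact permutation test allows for 3 against 3 libraries. With 9 such tests the adjusted values were 0.338 and 0.129. For each Igkc count there were 0.661, 0.671 and 0.663 Igkv counts in WT and 0.645, 0.614 and 0.632 in DH-LMP2A, so the DH-LMP2A values all lay a little below the WT values (exact permutation test, p = 0.1, adjusted 0.129).

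The WT and DH-LMP2A repertoires were read at high depth. Their libraries held 1280439 to 2119086 Igkv counts, of 15449026 to 21558128 counts in all for the 9 libraries, and 3 counts, taken as the floor of detection, were at most 0.000234% of the Igkv counts. Reads of similar segments are harder to assign. 78 of the 158 segments shared no stretch of 75 bases, the read length, with another segment, and 22 shared over 25% of such stretches. The plasma cell markers (Sdc1, Prdm1, Xbp1, Irf4, Jchain, Mzb1, Tnfrsf17 and Slamf7) summed to 18890 to 24141 CPM in WT, against 34147 to 47160 in DH-LMP2A and 20401 to 32064 in kFRA, with none of the 8 at 0. Jchain made up most of each of these sums, and by edgeR it was not called between DH-LMP2A and WT (adjusted p = 0.159), while Mzb1, Prdm1 and Slamf7 were higher and Tnfrsf17 lower. The 8 B cell markers summed to 333 to 658 CPM in WT, against 415 to 590 in DH-LMP2A and 232 to 291 in kFRA. Of these Ms4a1 and Cr2 were higher in DH-LMP2A than in WT, and Cd22 and Ciita lower. The 8 T cell markers summed to at most 158 CPM in any library. Myeloid markers summed to 1930 to 3297 CPM in WT and 493 to 1482 in DH-LMP2A, while erythroid markers summed to 33.3 to 185 CPM in WT and 1368 to 6933 in DH-LMP2A. The part of these other cells in the segment shares was not tested.

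The 3 WT mice had different leading segments, and the 3 DH-LMP2A mice had the same one. Igkv3-4 led WT replicate 1 with 10.5% of its Igkv counts, Igkv4-55 led WT replicate 2 with 13.7%, and Igkv5-39 led WT replicate 3 with 14.1%. These 3 segments were, in different order, the 3 highest of both WT replicates 1 and 3. In WT replicate 2 the 3 highest were Igkv4-55, Igkv10-96 and Igkv3-4. Igkv14-111 led all 3 DH-LMP2A libraries with 7.88%, 8.42% and 7.34%. The 10 highest segments by mean share had 4 in common between the genotypes, namely Igkv4-55, Igkv1-117, Igkv4-59 and Igkv14-111. Counts per base of row length gave the same 10 in WT, with Igkv4-55 still first, and the same first segment in DH-LMP2A, where Igkv5-45 took the place of Igkv1-117 among the 10.

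**Figure D1:**
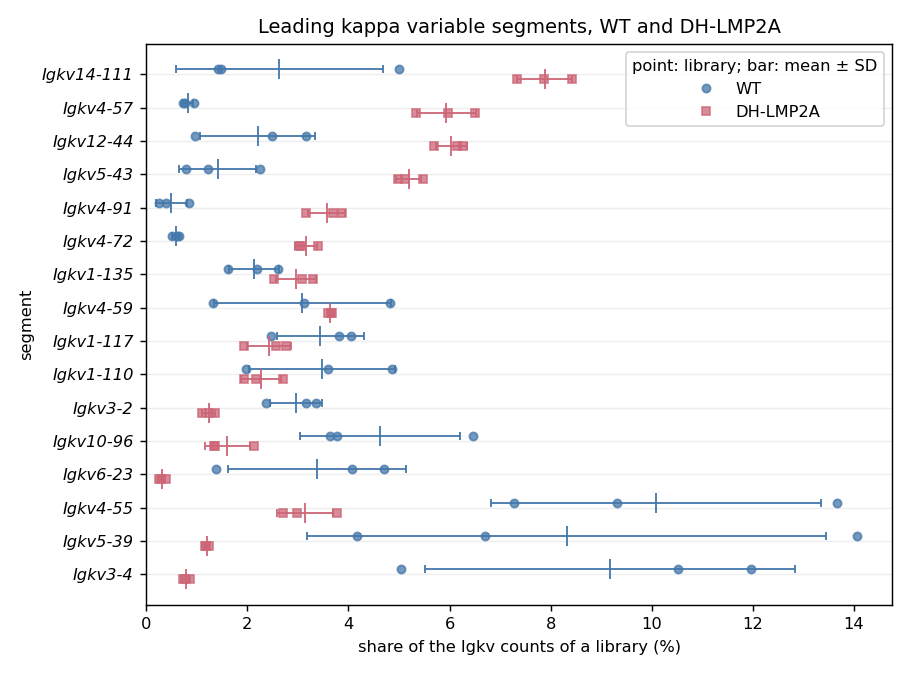
Share of the Igkv counts of a library (percent, x axis) for the segments among the 10 highest by mean share in WT or DH-LMP2A, ordered by the difference of the means. Points are libraries, 3 per genotype, and bars are the mean ± SD. The DH-LMP2A points lie close together, from 7.34% to 8.42% for Igkv14-111, while the WT points for Igkv5-39 run from 4.16% to 14.1%.

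Between DH-LMP2A and WT many segments moved in both directions. By edgeR's quasi-likelihood test with Benjamini-Hochberg adjustment over all genes, 53 of the 111 tested segments had an adjusted p under 0.05, against 12.4% of all 14199 genes tested. 29 were higher in DH-LMP2A, against 5.07% of all genes, and 24 were lower, against 7.3%. The median log2 fold change of the tested segments was 0.35, and that of all genes was −0.01. 28 of the higher and 23 of the lower segments differed over 2-fold, and 23 and 15 differed over 4-fold. CPM values of the 2 genotypes did not overlap for 68 segments, against 36.6% of all genes. Of the tested segments 41 (36.9%) were higher without overlap, against 17.5% of all genes. The 27 lower ones (24.3%) were not far above the 19.1% of all genes. Scaling by library size alone gave 40 higher and 16 lower segments, but no share of all genes was taken under that scaling. When counts were scaled to the Igkv total of each library, so that shares were compared, 32 were higher and 23 lower, against 2.97% and 4.17% of all genes, and 48 segments were called in the same direction under both this scaling and the main one. The number called lower fell to 12 without DH-LMP2A replicate 1 and to 13 without DH-LMP2A replicate 2.

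Among the segments that dominated WT, the Igkv3 family member Igkv3-4 fell most. It held 10.5%, 5.04% and 12.0% of the Igkv counts in WT and 0.761%, 0.728% and 0.868% in DH-LMP2A. Every WT share was over 5 times the highest DH-LMP2A share, and the log2 fold change was −3.63 (SE 0.66, edgeR adjusted p = 0.00761). Igkv6-23 held 1.38%, 4.07% and 4.69% in WT and 0.380%, 0.257% and 0.298% in DH-LMP2A. The WT shares were uneven but all above those of DH-LMP2A (log2 fold change −3.61 with an SE of 0.59, edgeR adjusted p = 0.0045).

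Igkv5-39 held 6.71%, 4.16% and 14.1% in WT and 1.19%, 1.24% and 1.16% in DH-LMP2A. Its WT shares spread widely, and those of DH-LMP2A lay close together. The log2 fold change was −2.99 (SE 0.63, edgeR adjusted p = 0.0138), and −1.998 without WT replicate 3. The adjusted p was 0.0661 without DH-LMP2A replicate 1 and 0.0525 without DH-LMP2A replicate 2. Igkv4-55 held 9.32%, 13.7% and 7.27% in WT and 3.77%, 2.70% and 2.98% in DH-LMP2A. It was among the 10 highest segments of both genotypes, and the groups did not overlap. Its log2 fold change was −1.71 (SE 0.39, edgeR adjusted p = 0.0209), and the adjusted p rose to between 0.0686 and 0.0727 without WT replicate 2, DH-LMP2A replicate 1 or DH-LMP2A replicate 2.

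Igkv10-96 and Igkv3-2 fell less and were called less firmly. Igkv10-96 held 3.77%, 6.45% and 3.64% in WT and 1.33%, 2.12% and 1.35% in DH-LMP2A (log2 fold change −1.60, edgeR adjusted p = 0.0256). Leaving out WT replicate 2 or 3 or any 1 of the 3 DH-LMP2A libraries took its adjusted p above 0.05, to 0.101 at most. Igkv3-2, which lies 23.8 kb from Igkj1, held 3.15%, 2.37% and 3.35% in WT and 1.10%, 1.25% and 1.35% in DH-LMP2A (log2 fold change −1.33, edgeR adjusted p = 0.0283). Its adjusted p was 0.0662, 0.111 and 0.0881 without WT replicate 3, DH-LMP2A replicate 1 and DH-LMP2A replicate 2. Both segments had lower shares in every DH-LMP2A library than in any WT library.

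Igkv4-57 was among the segments that dominated DH-LMP2A. It held 0.770%, 0.948% and 0.728% in WT and 6.51%, 5.33% and 5.97% in DH-LMP2A. The log2 fold change was 2.82 (SE 0.26, edgeR adjusted p = 0.000162), and the call held without any 1 of the 6 libraries. Igkv5-43 held 2.24%, 1.21% and 0.776% in WT and 5.12%, 4.97% and 5.47% in DH-LMP2A (log2 fold change 1.95 with an SE of 0.29, edgeR adjusted p = 0.00295). Its close relative Igkv5-45 held 0.346%, 0.307% and 0.0893% in WT and 2.47%, 2.32% and 2.47% in DH-LMP2A (log2 fold change 3.38, edgeR adjusted p = 0.000843). The pair thus rose together, and neither overlapped between the groups.

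Igkv4-91 and Igkv4-72 rose as well. Igkv4-91 held 0.841%, 0.384% and 0.256% in WT and 3.69%, 3.15% and 3.86% in DH-LMP2A (log2 fold change 2.95, edgeR adjusted p = 0.00119). Igkv4-72 held 0.602%, 0.642% and 0.511% in WT and 3.40%, 3.06% and 3.01% in DH-LMP2A (log2 fold change 2.39, edgeR adjusted p = 0.000162). For both, the lowest DH-LMP2A share was over 3 times the highest WT share.

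The first 2 segments of DH-LMP2A did not pass the test, although their shares did not overlap. Igkv14-111 held 1.41%, 1.48% and 4.99% in WT against 7.34% to 8.42% in DH-LMP2A, and the log2 fold change was 1.34 (SE 0.61, edgeR adjusted p = 0.197). The WT spread came from replicate 3, and without it the log2 fold change was 2.59 (edgeR adjusted p = 0.00201). Igkv12-44 held 0.955%, 2.49% and 3.17% in WT and 5.68%, 6.27% and 6.14% in DH-LMP2A (log2 fold change 1.28 with an SE of 0.49, edgeR adjusted p = 0.129). Scaled to the Igkv total its adjusted p was 0.0477, and without WT replicate 3 under the main scaling it was 0.0348. Igkv1-110, Igkv1-117, Igkv4-59 and Igkv1-135, also among the highest segments, were not called, with log2 fold changes from −0.75 to 0.36 and adjusted p from 0.354 to 0.657.

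The largest rises were those of segments outside the 10 highest by mean share of either genotype. Among called segments with a mean of at least 5 CPM and no overlap between the genotypes, the 8 highest fold changes were those of Igkv10-95, described below with its near copy, Igkv20-101-2, Igkv4-81, Igkv14-130, Igkv9-129, Igkv14-100, Igkv5-45 and Igkv4-78. Igkv14-130 held 0.0633%, 0.0439% and 0.0359% in WT and 0.728%, 0.604% and 0.655% in DH-LMP2A (log2 fold change 3.80 with an SE of 0.22, edgeR adjusted p = 6.35e-06). Igkv14-100 held 0.113%, 0.247% and 0.185% in WT and 2.21%, 1.86% and 1.99% in DH-LMP2A (log2 fold change 3.38, edgeR adjusted p = 0.000595). Both are relatives of the leading segment Igkv14-111. Igkv20-101-2, the only member of its family, had 11, 46 and 12 counts in WT and 382, 427 and 619 in DH-LMP2A (log2 fold change 4.11, edgeR adjusted p = 0.00309), and 5.02 without WT replicate 2. Igkv4-81 had 12, 134 and 75 counts in WT and 1180 to 1677 in DH-LMP2A (log2 fold change 4.00, edgeR adjusted p = 0.00322), and 4.63 without WT replicate 2. Igkv4-78 had a log2 fold change of 3.28 (edgeR adjusted p = 0.000108).

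Igkv9-129 stood apart among the DH-LMP2A libraries. It held 0.0161%, 0.0198% and 0.0176% in WT and 0.330%, 0.0295% and 0.374% in DH-LMP2A, so that replicate 2 was close to WT and the other 2 libraries were far above. The log2 fold change was 3.80 (SE 0.83, edgeR adjusted p = 0.0169), and 3.14 without DH-LMP2A replicate 3. The adjusted p was 0.0662 without WT replicate 1 and 0.0677 without WT replicate 2.

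By the same rule, the 8 lowest fold changes were those of Igkv6-20, Igkv6-14, Igkv3-4, Igkv6-23, Igkv6-29, Igkv10-94, Igkv5-39 and Igkv2-137. Igkv6-20 held 0.207%, 0.409% and 0.930% in WT and 0.0185%, 0.0461% and 0.0517% in DH-LMP2A (log2 fold change −3.92, edgeR adjusted p = 0.0104), and the log2 value was −2.83 without WT replicate 3. Igkv6-14 had a log2 fold change of −3.69 (edgeR adjusted p = 0.00132), and −2.90 without WT replicate 1. Igkv6-29 had −3.59 (edgeR adjusted p = 0.00991), −2.49 without WT replicate 3, and an adjusted p of 0.0504 without DH-LMP2A replicate 1. Igkv2-137, the segment farthest from Igkj1, was at only 0.0132% ± 0.0078 in WT and 0.0024% ± 0.0008 in DH-LMP2A (SD, n = 3; log2 fold change −2.68, edgeR adjusted p = 0.0145). Without WT replicate 3 its log2 fold change was −1.72, and without DH-LMP2A replicate 2 its adjusted p was 0.0536. Igkv2-137 overlaps an exon of the annotated gene Gm42889, so its counts are uncertain.

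Members of a family tended to be called in 1 direction in some families and in both in others. In the Igkv6 family 8 of 9 tested segments fell and none rose, where 7.3% of all genes were lower in DH-LMP2A and 5.07% higher. These shares are the background for the counts of every family. The family held 8.41%, 10.6% and 10.1% of the Igkv counts in WT and 2.15%, 1.62% and 1.73% in DH-LMP2A. The ninth, Igkv6-25, had a log2 fold change of −1.11 (edgeR adjusted p = 0.0552). The 9 include Igkv6-15, at 2.18% ± 0.35 in WT and 0.416% ± 0.115 in DH-LMP2A (SD, n = 3; log2 fold change −2.44, edgeR adjusted p = 0.000368), and Igkv6-17, at 1.22% ± 0.64 and 0.343% ± 0.076 (log2 fold change −1.78, adjusted p = 0.014).

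The Igkv3 family held 21.5%, 11.7% and 18.1% in WT and 5.23%, 4.57% and 5.10% in DH-LMP2A. Only 3 of its 10 tested members fell (Igkv3-4, Igkv3-5 and Igkv3-2), while Igkv3-9 rose from 0.0262% ± 0.0136 to 0.128% ± 0.019 (SD, n = 3; edgeR adjusted p = 0.0186). Igkv8 went from 6.65% ± 2.34 to 4.10% ± 0.27, with 3 of 11 tested members lower (Igkv8-24, Igkv8-21 and Igkv8-28) and none higher. Igkv10, a family of 3, went from 6.47% ± 1.63 to 3.19% ± 0.91. None of these families overlapped between the genotypes.

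In the Igkv4 family, the largest with 31 tested segments, 14 rose, against 5.07% of all genes, and 2 fell, against 7.3%. It held 23.1%, 25.5% and 16.5% in WT and 31.2%, 28.6% and 29.6% in DH-LMP2A. The 2 that fell were Igkv4-55 and Igkv4-53. Igkv12 held 6.15%, 6.82% and 5.78% in WT and 12.0%, 12.3% and 12.3% in DH-LMP2A. Of its 8 tested members Igkv12-89 and Igkv12-98 rose, with log2 fold changes of 2.86 (edgeR adjusted p = 0.00109) and 2.14 (edgeR adjusted p = 0.00119), and the low-level Igkv12-38 fell. The largest change in share within the family was that of Igkv12-44, which was not called, from a mean of 2.20% to 6.03%.

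Igkv14 held 3.93%, 1.96% and 5.45% in WT and 12.1%, 11.8% and 11.1% in DH-LMP2A, with 2 of 4 tested members higher. The largest change in share within it was that of Igkv14-111, which was not called, from a mean of 2.63% to 7.88%. Igkv5 held 9.91%, 6.59% and 16.2% in WT and 10.3%, 10.1% and 10.7% in DH-LMP2A. Its total overlapped while its members separated, since Igkv5-39 fell and Igkv5-43 and Igkv5-45 rose. Igkv1 overlapped too, at 10.4% ± 1.07 in WT and 8.96% ± 0.67 in DH-LMP2A.

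**Figure D2:**
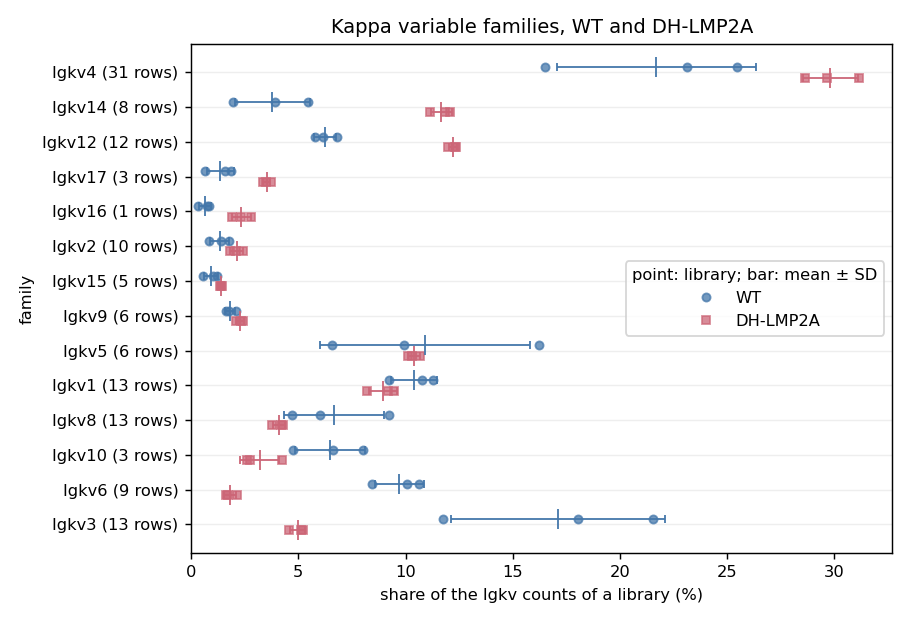
Share of the Igkv counts of a library (percent, x axis) summed over the rows of each family, for the families with larger shares. Points are libraries, 3 per genotype, and bars are the mean ± SD. Igkv6 lies between 8.41% and 10.6% in WT and between 1.62% and 2.15% in DH-LMP2A, and Igkv5 overlaps.

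The shares were also summed over sets of segments along the locus. Ordered by distance from Igkj1, the 53 nearest rows (18.7 to 1073.5 kb away) held 52.0%, 45.0% and 54.4% of the Igkv counts in WT and 31.8%, 31.2% and 31.7% in DH-LMP2A. Of 45 tested segments there 17 fell, against 7.3% of all genes, and 5 rose, against 5.07%. Much of the fall in share lay in Igkv3-4 and Igkv5-39. Igkv3-4, 50.5 kb away, went from a mean of 9.17% in WT to 0.785% in DH-LMP2A. Igkv5-39, 821.9 kb away, went from 8.31% to 1.20%. The 52 middle rows (1090.6 to 1967.2 kb) held 23.3%, 26.1% and 17.5% in WT and 33.7%, 30.8% and 31.9% in DH-LMP2A, with 15 of 33 tested segments higher and 2 lower. The 53 farthest rows (2009.8 to 3166.7 kb) held 24.6%, 28.9% and 28.1% in WT and 34.5%, 38.0% and 36.4% in DH-LMP2A, with 9 of 33 higher and 5 lower. The groups did not overlap in any of the 3 sets of rows. The rows that join 2 places were put at their midpoint, and without them the means of the nearest, middle and farthest sets were 51.0%, 21.8% and 27.2% in WT and 32.1%, 31.7% and 36.1% in DH-LMP2A, again with no overlap. Families cluster along the locus, and the 9 Igkv6 segments all lie in the nearest set, so family and position cannot be told apart, and neither was given a test.

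Orientation showed no such separation over the whole locus. Segments opposite to Igkc, which join by inversion and keep the intervening DNA, held 60.5% ± 4.02 in WT and 59.9% ± 0.95 in DH-LMP2A (SD, n = 3). Within the nearest rows, those with the same orientation as Igkc held 19.0% ± 4.67 in WT and 5.64% ± 0.44 in DH-LMP2A, and those with the opposite one 31.5% ± 3.57 and 25.9% ± 0.13. Within the farthest rows the same-orientation segments went from 20.2% ± 2.63 to 34.3% ± 1.39, and the opposite ones, which include Igkv10-96 and Igkv10-94, went from 6.97% ± 1.79 to 2.00% ± 0.48. In none of these 4 sets did the genotypes overlap.

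**Figure D3:**
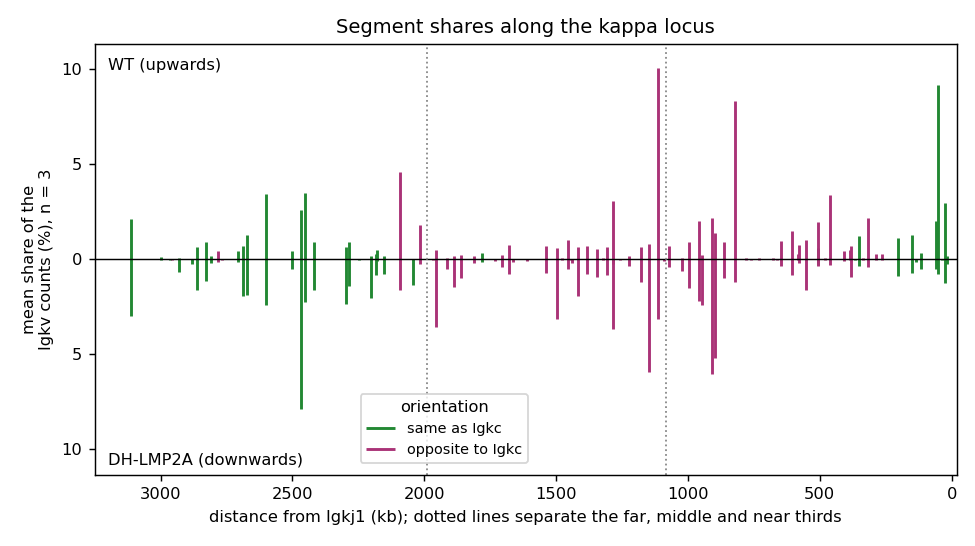
Mean share of the Igkv counts (percent, y axis, n = 3 libraries) of each segment against its distance from Igkj1 (kb, x axis), with WT drawn upwards and DH-LMP2A downwards. Dotted lines separate the 53 nearest, 52 middle and 53 farthest rows, and colour gives the orientation relative to Igkc. Igkv3-4, 50.5 kb from Igkj1, is the tall WT bar at the right, and Igkv14-111, at 2465.9 kb, is the tallest DH-LMP2A bar.

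Near-identical copies were compared because their reads are the hardest to separate. Of 15 pairs whose transcripts were at least 95% identical, 3 had both members called in the same direction, 6 had 1 member called, 5 had none, and 1 had its members called in opposite directions. That pair was Igkv10-94 and Igkv10-95. Their V exons, at chr6:68704508-68704805 on the minus strand and chr6:68680551-68680848 on the plus strand, are shown with the differing bases in capitals.
Igkv10-94: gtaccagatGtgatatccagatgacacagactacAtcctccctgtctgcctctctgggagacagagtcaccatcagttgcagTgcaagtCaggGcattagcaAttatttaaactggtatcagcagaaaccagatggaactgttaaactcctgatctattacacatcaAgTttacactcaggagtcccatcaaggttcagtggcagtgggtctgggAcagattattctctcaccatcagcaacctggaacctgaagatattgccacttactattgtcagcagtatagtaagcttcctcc
Igkv10-95: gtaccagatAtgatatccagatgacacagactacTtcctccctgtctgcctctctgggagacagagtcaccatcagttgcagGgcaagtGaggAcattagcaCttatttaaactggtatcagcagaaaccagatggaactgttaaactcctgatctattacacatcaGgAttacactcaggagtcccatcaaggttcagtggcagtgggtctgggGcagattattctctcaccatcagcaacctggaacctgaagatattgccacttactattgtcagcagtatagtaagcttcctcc
Counted from 1 at the 5′ end of the exon, with the base of Igkv10-94 first, the 9 differences in 298 bases are G10A, A35T, T83G, C90G, G94A, A103C, A168G, T170A and A216G. The CDR3 part is the same in both. Igkv10-94 held 2.84%, 1.54% and 1.11% of the Igkv counts in WT and 0.185%, 0.284% and 0.186% in DH-LMP2A (log2 fold change −3.04 with an SE of 0.24, edgeR adjusted p = 5.25e-05). Igkv10-95 held 0.0315%, 0.0277% and 0.0144% in WT and 1.08%, 1.84% and 1.20% in DH-LMP2A (log2 fold change 5.81 with an SE of 0.29, edgeR adjusted p = 3.22e-06). This was the highest log2 fold change among the segments named here. The counts of the 2 rows thus moved in opposite directions, and both calls held without any 1 of the 6 libraries. The WT shares of Igkv10-94 and the DH-LMP2A shares of Igkv10-95 lay in overlapping ranges, 1.11% to 2.84% and 1.08% to 1.84%. How far reads of one were counted for the other was not tested. Nor was it tested whether the mice, of mixed background, carried other alleles of either segment. When all rows at least 95% identical were summed before the fit, 24 of 99 rows were higher and 19 lower. No share of all genes was taken in that fit.

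An identical CDR3 part was found in 8 other sets of segments, and in 4 of them all members were called in 1 direction. Of all 111 tested segments 26.1% were called higher and 21.6% lower, against 5.07% and 7.3% of all genes. Igkv3-4 and Igkv3-5 share the part shown above for Igkv3-4, and both fell. Igkv5-43 and Igkv5-45 share theirs, and both rose. The ends of Igkv4-57 and Igkv4-90, Igkv6-13 and Igkv6-23, and Igkv4-59, Igkv4-68 and Igkv4-72 are given with 9 bases before the CDR3 part.
Igkv4-57: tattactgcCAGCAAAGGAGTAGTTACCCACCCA
Igkv4-90: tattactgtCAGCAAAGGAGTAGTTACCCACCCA
Igkv6-13: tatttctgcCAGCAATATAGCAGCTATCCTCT
Igkv6-23: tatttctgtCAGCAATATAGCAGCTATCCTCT
Igkv4-59: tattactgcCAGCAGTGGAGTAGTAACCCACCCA
Igkv4-68: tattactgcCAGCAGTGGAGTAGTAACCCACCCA
Igkv4-72: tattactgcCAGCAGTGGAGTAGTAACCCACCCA
Igkv4-57 and Igkv4-90 both rose (log2 fold changes 2.82 and 2.65), and Igkv6-13 and Igkv6-23 both fell (−2.48 and −3.61). Igkv4-68 and Igkv4-72 rose (1.66 and 2.39), while Igkv4-59, with the same CDR3 part, had a log2 fold change of 0.32 (edgeR adjusted p = 0.657). In the other 3 sets 1 member was called and 1 was not. Igkv4-69 rose (log2 fold change 2.74), while Igkv4-70 was at −0.85 (edgeR adjusted p = 0.283). Igkv9-129 rose, and Igkv9-120 was at 0.43 (edgeR adjusted p = 0.501). Igkv8-24 fell (−2.53), and Igkv6-25 was at −1.11 (edgeR adjusted p = 0.0552). Apart from Igkv8-24 and Igkv6-25, the segments of each set belong to 1 family. Members of a family are similar in sequence, so they are not independent of each other.

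The repertoire was more even in DH-LMP2A. Its diversity was described by the effective number of segments, the exponential of the Shannon entropy, which is the number of equally used segments that would give the same entropy. This number was 40.5, 42.1 and 33.5 in WT and 48.8, 48.6 and 48.3 in DH-LMP2A. All DH-LMP2A values lay above all WT values, and they differed little among themselves. The inverse Simpson index, which weighs abundant segments more, was 25.1, 24.8 and 18.4 in WT and 33.5, 33.5 and 33.9 in DH-LMP2A. 10, 11 and 7 segments made up 50% of the Igkv counts in WT, and 13 did so in each DH-LMP2A library. The 10 highest segments of a library held 51.4%, 49.2% and 60.5% in WT and 45.2%, 43.4% and 43.9% in DH-LMP2A.

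DH-LMP2A mice resembled each other more than WT mice did. For a pair of libraries the smaller share of each segment was summed, which gives the percentage of Igkv counts in common. It was 92.3% to 93.3% within DH-LMP2A, 68.8% to 74.0% within WT and 48.0% to 52.8% between the 2 genotypes. Of 52 segments with a mean share over 0.5%, 48 had a larger coefficient of variation in WT than in DH-LMP2A, and its median was 43.5% in WT and 10.4% in DH-LMP2A. The highest share was over 2 times the lowest for 36 of these segments in WT and for none in DH-LMP2A. The widest in WT was Igkv14-126, at 2.34%, 0.192% and 0.243%, and the widest in DH-LMP2A was Igkv12-47, 1 of the rows that join 2 places, with a ratio of 1.94. Below that level DH-LMP2A mice could still differ, and Igkv4-62 had 26, 453 and 2542 counts in them. These indices are descriptions of 3 mice per genotype and were given no test.

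**Figure D4:**
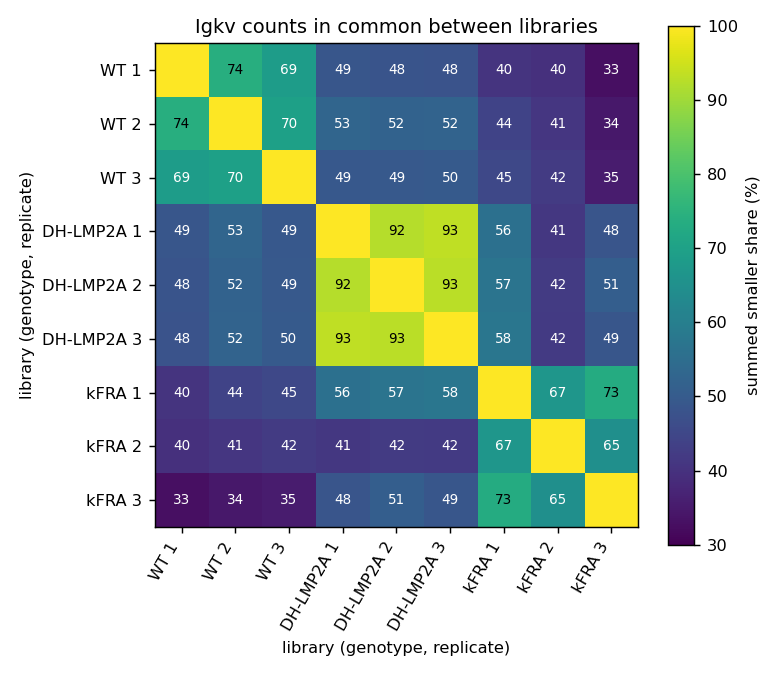
Percentage of Igkv counts in common for each pair of the 9 libraries (colour and number in each square), summed over segments as the smaller of the 2 shares. The 3 DH-LMP2A libraries share 92% to 93% with each other, the 3 WT libraries 69% to 74%, and WT and DH-LMP2A libraries 48% to 53%.

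In kFRA nearly all Igkv transcripts were gone. The 3 libraries held 300, 896 and 354 Igkv counts, and the mean share of all counts was 2379 times lower than in WT and 2924 times lower than in DH-LMP2A. Against WT, 108 of the 111 tested segments were called by edgeR's quasi-likelihood test, against 17.8% of all genes. All 108 were lower, against 11.1% of all genes, and none was higher, against 6.68%, and the median log2 fold change of the 111 was −11.15. Against DH-LMP2A 105 were called, against 5.02% of all genes. All of them were lower, against 3.3%, and none higher, against 1.73%, with a median of −11.86. Igkc itself took 36.5% ± 8.78 of all kFRA counts (SD, n = 3), so the kFRA libraries held 0.0470 to 0.197 Igkv counts per 1000 Igkc counts. By edgeR Igkc in kFRA was not called against WT (log2 fold change 1.57, adjusted p = 0.0643) or against DH-LMP2A (1.56, adjusted p = 0.128).

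The segments not called lower had few counts, or counts that spread widely in WT or DH-LMP2A. Igkv2-107, a pseudogene, had 5, 10 and 3 counts in WT, 41, 21 and 19 in DH-LMP2A and 7, 30 and 8 in kFRA; the kFRA counts lay within the range of the other genotypes. Igkv1-108, another pseudogene, had 2, 2 and 2 counts in WT, 19, 24 and 15 in DH-LMP2A and 0, 11 and 2 in kFRA. Igkv1-35 had 2 counts in all WT libraries together and 1 in kFRA. Igkv4-62, Igkv12-40, Igkv18-36 and Igkv7-33 had at most 2 counts in any kFRA library and were not called against DH-LMP2A (edgeR adjusted p from 0.0504 to 0.252). Igkv4-62 spread widely in DH-LMP2A, at 26, 453 and 2542 counts, and Igkv12-40 had 25, 9 and 13 there. Igkv7-33 had 283, 238 and 323 counts in DH-LMP2A, and Igkv18-36 had 137, 231 and 116. Both spread widely in WT instead, Igkv7-33 at 27, 91 and 1462 counts and Igkv18-36 at 50, 2065 and 151.

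The residue in kFRA was 1550 counts over 100 segments. Igkv3-1, the segment nearest to Igkj1 in the table, had 16, 145 and 23 counts, which is 11.9% of the residue (exact binomial 95% interval 10.3 to 13.6, counting error only). Its mean share was 0.183% in WT and 0.234% in DH-LMP2A. Igkv3-2 had 32, 85 and 48 counts (10.6%) and led replicates 1 and 3, and Igkv2-109 had 27, 78 and 48 counts (9.87%). Igkv14-111 had 21, 64 and 30 counts (7.42%), close to its 7.88% mean share in DH-LMP2A. Igkv15-103 had 5, 64 and 10 counts (5.10%). These 5 segments held 44.9% of the residue.

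**Figure D5:**
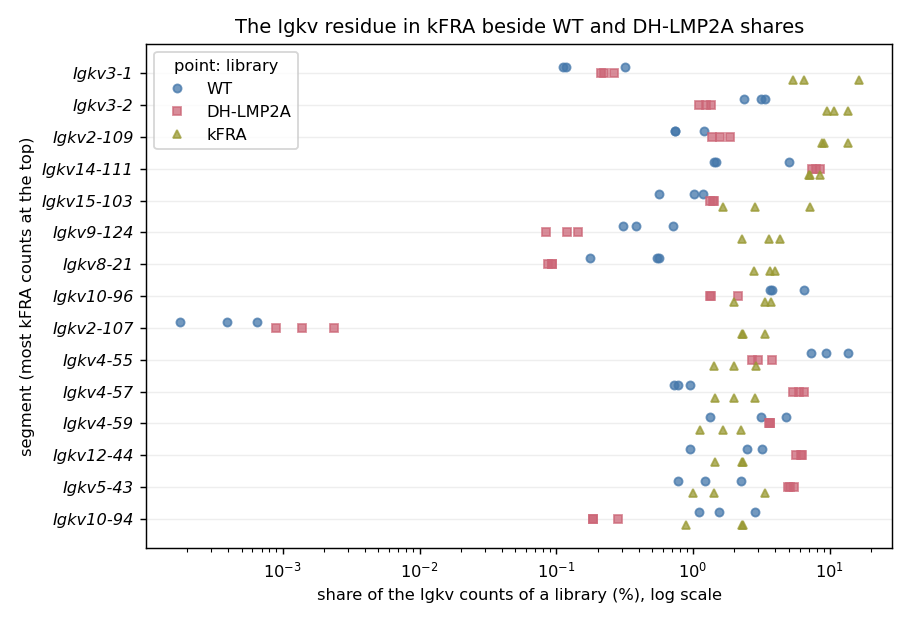
Share of the Igkv counts of a library (percent, log scale, x axis) for the 15 segments with the most counts in kFRA, with 1 point per library of each genotype. The kFRA points of Igkv3-1 and Igkv2-107 lie far to the right of the WT and DH-LMP2A points, whereas those of Igkv14-111, from 7% to 8.47%, lie close to the DH-LMP2A points.

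The ends of the V exons of the 3 leading residue segments, at chr6:70703868-70704177, chr6:70698758-70699067 and chr6:68302846-68303158, all on the plus strand, are given with 9 bases before the CDR3 part.
Igkv3-1: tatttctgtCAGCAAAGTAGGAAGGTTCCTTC
Igkv3-2: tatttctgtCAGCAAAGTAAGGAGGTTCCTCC
Igkv2-109: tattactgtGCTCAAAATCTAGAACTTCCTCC
The residue shared 44.7% with the mean WT repertoire and 48.6% with the mean DH-LMP2A repertoire, where the 2 mean repertoires shared 53.0% with each other. Across the 158 segments, which are not independent, Pearson's r of the shares was 0.28 with WT and 0.38 with DH-LMP2A. The rank measure was higher, and Spearman's rho of a kFRA library was 0.55 to 0.76 with WT libraries and 0.63 to 0.72 with DH-LMP2A libraries, and 0.62 to 0.66 with other kFRA libraries. Segments with no or few counts are tied or nearly so in these ranks. kFRA replicate 2 supplied 57.8% of the residue counts, and without it the residue shared 41.9% with WT and 55.2% with DH-LMP2A. The Igkv3-1 share, averaged over libraries, was 9.34% ± 5.96 (SD, n = 3) and 5.92% without replicate 2. At a matched number of 300 Igkv counts, the expected number of segments seen was 55.6 to 59.8 in WT, against 62.0 to 63.1 in DH-LMP2A and 56.1 to 62.0 in kFRA, so the kFRA range overlapped that of WT and, at its upper end, that of DH-LMP2A. Between kFRA replicates 1 and 3 the Igkv counts, without the rows of few counts, differed by no more than sampling noise (chi-square per degree of freedom 0.863). These libraries held only 300 and 354 Igkv counts, so modest differences could be missed. Replicate 2 differed from both beyond that noise (2.94 and 3.12). Replicates 1 and 3 differed over all genes (18.1) and are separate mice.

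Other genes of light-chain production were followed as a list of 23 genes, 17 of which were tested. In DH-LMP2A against WT 4 were higher, against 5.07% of all genes, and 2 lower, against 7.3%, with a median log2 fold change of 0.18. Igkc, the constant region used by all these segments, was not called (log2 fold change 0.02, edgeR adjusted p = 0.99). Among the joining segments Igkj4 was higher, at 224, 236 and 270 CPM in WT and 408, 413 and 573 CPM in DH-LMP2A (log2 fold change 0.93, edgeR adjusted p = 0.0269), and Igkj1, Igkj2, Igkj3 and Igkj5 were not called, with log2 fold changes of at most 0.18. The lambda genes Iglc1 and Iglv1 rose, by 2.99 and 2.60 on the log2 scale (edgeR adjusted p = 0.000401 and 0.00034), while the lambda variable segment Iglv2 fell by 1.64 (adjusted p = 0.0324). Cd79a, which codes for a signalling chain of the B cell receptor, rose by 1.19 (adjusted p = 0.0145), and Ighm fell by 4.12 (adjusted p = 0.000171). Rag1 and Rag2, the recombinase that joins the segments, were under 1 CPM on average in all 3 genotypes and were not tested. In kFRA against WT 2 of the 17 were higher, Iglc1 and Iglv1, against 6.68% of all genes, and 8 lower, against 11.1%. The 8 include all 5 Igkj segments. The median log2 fold change of the list was −0.54, and that of all genes −0.04. The Igkj rows held at most 11 counts in a kFRA library.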

How the data were processed

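RNA was sequenced from the CD138-positive spleen cells of 9 mice (TruSeq Stranded mRNA libraries, paired reads of 75 bases, per the labels' protocols). Read counts per gene, not normalized, are what the authors deposited. The submitters' processing notes name STAR 2.4.0a, featureCounts from Subread 1.5.0-p3, DESeq2 and the builds mm10 and GRCm38. How the counter used strand and multi-mapping reads, and the annotation release, are not given in the sources used here. The table's coordinates were read as GRCm38, since 152 of the 158 Igkv rows had the same span in GENCODE M21.

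The count tests used edgeR 4.0.16 in R 4.3.3. Filtering with filterByExpr left 14199 genes, TMM normalization factors were applied, and 1 quasi-likelihood model was fitted to all 9 libraries with a coefficient per genotype. The 3 pairwise contrasts were tested 2-sided, with Benjamini-Hochberg adjustment of the p-values over all genes. The threshold was 0.05. The standard error (SE) is the absolute log2 fold change over the root of the F statistic. CPM values use the TMM-scaled library sizes. Segment shares are percentages of a library's Igkv counts, not divided by length. Since shares sum to a fixed total, the rise of one segment lowers the others. The edgeR p-values rest on 1 spread between mice per gene, estimated over all 9 libraries and drawn in part from other genes. Intervals and floors cover counting error only. On simulated data with 200 changed genes among 14199, for DH-LMP2A against WT, 40% of 2-fold and 92% of 4-fold changes were recovered, with 9 false calls. The simulation gave each gene 1 spread between mice for all genotypes. The larger segments had a median coefficient of variation of 43.5% in WT and 10.4% in DH-LMP2A, so these rates need not hold for them. The spread behind their edgeR p-values is likewise that of neither genotype alone.

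Groups came from the genotype labels. The replicate numbers come from the titles and name different mice, and they paired nothing: deviations of same-numbered libraries correlated from −0.21 to 0.20. Every pair of replicates differed beyond sampling noise over all genes (chi-square per degree of freedom 17.3 to 164). Segments named are the 10 with the highest mean share in WT and in DH-LMP2A, the 8 highest and 8 lowest fold changes among called segments with at least 5 CPM and no overlap, the 5 with the most kFRA counts, and the first of each library; any other was chosen after its values were seen. The members and gene lists were chosen with earlier results of these data known. Sequences were read from GENCODE M21 transcripts. The alternatives were other scalings, filters, tests, thresholds and indices, a replicate block, and leaving out each library. Promoter sequences were not used here.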

Additional observations from a re-analysis of the deposited data

How the results depend on the processing

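Most results kept their direction and their side of the threshold under the alternatives tried. The number of segments called lower in DH-LMP2A was 24, and it was 9 at an adjusted p under 0.01, where 22 were called higher. Leaving out 1 library at a time gave 12 to 25 lower and 25 to 36 higher segments. DESeq2's Wald test called 36 higher and 27 lower, no filter on low counts 36 and 29 of 137, and a mean of at least 5 CPM 26 and 22 of 100. The share of all genes called was taken only in the main fit and under scaling to the Igkv total. Counts in the other settings, with the replicate block and the summed rows below, stand without it. The ratio of effective numbers, DH-LMP2A to WT, was 1.26, against 1.48 with the inverse Simpson index. The percentage in common within DH-LMP2A was 23.1 points above that within WT. This difference was 25.2 points without the leading segment of each library, and 18.8 to 24.0 when 1 library was left out, with the lowest value without WT replicate 3. The Igkv5 difference of −0.53 percentage points became 2.13 without WT replicate 3, with a range of −2.69 to 2.13. The Igkv share of all counts, 1.66 points higher in DH-LMP2A, was 1.95 points lower (−1.95) when taken against the counts outside immunoglobulin genes. The means were then 14.6% ± 3.87 in WT and 12.6% ± 2.16 in DH-LMP2A (SD, n = 3, exact permutation test, p = 0.7, adjusted 0.7). That total leaves out Ighm, which was at 169075 CPM in WT and 9750 CPM in DH-LMP2A. Beyond the left-out libraries, the causes of these shifts were not tested.

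With the replicate number as a block, 35 segments were higher and 22 lower in DH-LMP2A against WT, and 108 and 106 were lower in kFRA against WT and DH-LMP2A. Of 9 libraries, 2 correlated best with their own number. Rows at least 95% identical, summed, gave 96 and 93 lower in kFRA, of 99. This summing, the alternatives to the percentage in common and to the locus sets, leaving out the rows that join 2 places, and leaving out kFRA replicate 2 were chosen after seeing the data. The Igkv share in kFRA was 0.00196% to 0.00360% with 1 library left out. Depth limits single segments in kFRA, where 3 counts are 0.335% to 1% of the residue.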

Other observations

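The length of the germline CDR3 part differed between segments. Of its 9 classes 4 did not overlap in share between WT and DH-LMP2A, and 5 did. Of 95 segments with a V exon sequence, 66 had a part of 23 bases, and they held 74.5%, 70.6% and 79.8% of the Igkv counts in WT and 63.7%, 65.8% and 64.8% in DH-LMP2A. The 17 segments with a part of 25 bases, all of the Igkv4 family, held 20.7%, 23.6% and 15.9% in WT and 29.3%, 26.4% and 28.0% in DH-LMP2A. Neither class overlapped between the genotypes, and the second is a part of the Igkv4 family described above. These are germline lengths, and the lengths after joining were not measured.

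Pseudogene rows held 0.771% ± 0.183 of the Igkv counts in WT and 1.11% ± 0.27 in DH-LMP2A (SD, n = 3), and these overlapped. Igkv12-47 alone held 0.689% and 0.759%. That row joins exons of Igkv12-47 and of Igkv13-85, a V gene, so its counts may not be a pseudogene's. Without the rows that join 2 places, pseudogenes held 0.0544% ± 0.0392 in WT and 0.0952% ± 0.0141 in DH-LMP2A, which overlapped. Of the 12 pseudogenes tested by edgeR 4 were higher in DH-LMP2A, against 5.07% of all genes, and none lower, against 7.3%. They were Igkv4-73 and Igkv4-56, both rows that join 2 places, Igkv4-77 and Igkv1-108. In kFRA pseudogenes made up 4.67%, 6.25% and 5.08% of the residue, above their share in any WT or DH-LMP2A library, and 3.73%, 6.07% and 4.83% without the joined rows. Igkv2-107 alone had 45 of the 1550 residue counts, 2.90% of them (exact binomial 95% interval 2.13 to 3.87).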
